A study of Homo sapiens with 30 samples.

Results

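PPP2R2A and 9 further genes for subunits of protein phosphatase 2A (PP2A) were followed in 22Rv1 cells while CDK9, the kinase that releases paused RNA polymerase II into elongation, was inhibited. The 10 genes were taken by name from the 22382 genes of the deposited table, and all 10 passed the filter on low counts. PPP2R2A heads the set because of values already seen in these libraries, so its own values are a description and carry no test. The other 9 subunit genes were chosen alongside it, and each was tested in a fit over all genes.

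22Rv1 is a human cell line of castration-resistant prostate cancer, grown here in RPMI-1640 with 10% fetal bovine serum. RNA was measured by SLAM-seq: cells take up 4-thiouridine (s4U), the s4U in the extracted RNA is alkylated, and reads of RNA made during labelling then carry T-to-C conversions. Labelling began in every culture with a 30 min pulse of 800 µM s4U, after which the 0 h samples were taken. The medium was then exchanged for medium with 800 µM s4U and either DMSO (the solvent control), 1.2 µM KB742 or 4 µM KI-ARv-03, both CDK9 inhibitors, and cells were collected after 2, 4 or 8 h. There were 3 libraries for each of the 10 groups, 30 in all. The labels do not say that the 3 came from separate cultures, so the spread between them may be technical. The doses of the inhibitors differ, so their values are given side by side and no comparison between them was made. Every inhibitor group is set against the DMSO group of the same time, and all DMSO groups against the same 0 h group, so these comparisons share control libraries.

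PP2A is a serine/threonine phosphatase that works as a trimer. A scaffold subunit (PPP2R1A or PPP2R1B) holds a catalytic subunit (PPP2CA or PPP2CB) and 1 regulatory B subunit that chooses the substrates. PPP2R2A and PPP2R2D belong to the B55 family, known for reversing phosphorylation by mitotic kinases, and PPP2R5A, PPP2R5C, PPP2R5D and PPP2R5E belong to the B56 family, which binds short motifs in its targets. PP2A bound to the Integrator complex removes phosphates that CDK9 places on RNA polymerase II and its elongation factors. PPP2R2A is often deleted in prostate cancer.

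RefSeq promoter windows (GRCh38.p14), cut to the 250 bases before the start, were found for 8 of the 10 genes. PPP2R2A and PPP2CB were not among them. The windows of PPP2CA and PPP2R1A are shown because, among the 8 tested genes with a conversion value at 8 h, these had the highest and the lowest mean with DMSO. Capitals mark every match, on either strand, to any of 5 motifs: the TATA box TATAAA, the GC box GGGCGG, the CCAAT box CCAAT, the cAMP response element TGACGTCA and the E-box CACGTG. None of these matches overlaps another in the windows shown. PPP2CA lies on the minus strand (chr5:134226074-134226323) and PPP2R1A on the plus strand (chr19:52189802-52190051), and both are printed 5′ to 3′ in the direction of the gene.
PPP2CA: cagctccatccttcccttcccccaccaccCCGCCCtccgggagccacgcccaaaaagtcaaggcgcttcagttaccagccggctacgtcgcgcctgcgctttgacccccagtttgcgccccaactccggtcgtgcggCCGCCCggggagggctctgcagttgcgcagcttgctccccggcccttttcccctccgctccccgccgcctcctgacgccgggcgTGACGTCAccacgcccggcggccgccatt
PPP2R1A: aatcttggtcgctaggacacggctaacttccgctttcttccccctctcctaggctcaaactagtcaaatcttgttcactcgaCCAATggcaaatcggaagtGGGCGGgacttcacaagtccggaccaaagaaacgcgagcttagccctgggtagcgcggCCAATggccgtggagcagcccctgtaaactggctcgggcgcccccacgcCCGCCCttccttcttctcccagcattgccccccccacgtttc

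All 8 windows hold GGGCGG, as do 42.6% of the 35116 promoter windows of the table, and none holds TATAAA, which 10.7% of all windows hold. CCAAT is in 6 of the 8 (32.0% of all windows) and TGACGTCA in 2, those of PPP2CA and PPP2R2D (1.65% of all windows). CACGTG is in none of the 8 (6.34% of all windows). PPP2CA holds 2 matches to GGGCGG and 1 to TGACGTCA, and PPP2R1A 2 to GGGCGG and 2 to CCAAT. Matches to letters do not show that a factor binds there, and these windows were not measured here.

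Levels are given in rescaled CPM, counts per unit of depth (CPM) after correction for library composition. A level is thus a share of the library and not an amount per cell. Conversion is given in percent as deposited. Depth ran from 3376884 to 9265131 reads, 1416051 to 3971413 of them on the genes kept, and a single member had between 3 and 1059 reads in a library. The luminal prostate markers KLK3, KLK2, HOXB13, KRT8, KRT18, EPCAM and FOLH1 were detected in every library, HOXB13 for example at 57.3 to 263 CPM and KRT8 at 75.0 to 289 CPM. Markers of basal cells (0 to 1.26 CPM), stroma (0.519 to 23.9 CPM), endothelium (0 to 0.397 CPM) and immune cells (0 to 4.29 CPM) were low, most of the stromal sum being COL1A1, with no read for KRT14, COL1A2, VWF, CDH5 and PTPRC. One library, KI-ARv-03 at 4 h replicate 1, had a mean conversion of 1.18%, against 0.383% and 0.422% in the others of its group, and gave the highest conversion of its group for 9 of the 10 members. Replicate 3 at 0 h and replicate 2 of KB742 at 2 h had few genes detected for their depth. Likeness by level was taken as the mean correlation of centred log2 levels with the others of the group. KB742 at 4 h replicate 3 was lowest of all libraries (r = -0.256). The same value was 0.00871 for KI-ARv-03 at 4 h replicate 1, not the lowest of its group. For 0 h replicate 3 it was 0.505, beside 0.717 and 0.692 in its group. For KB742 at 2 h replicate 2 it was -0.109, beside 0.187 in each of the others of its group. Values without KI-ARv-03 at 4 h replicate 1, 0 h replicate 3 and KB742 at 2 h replicate 2 are given where a call changed. Without them the level difference of PPP2R2A from DMSO was 0.54 for KB742 at 2 h, and that from 0 h with DMSO was -0.69 at 8 h.

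PPP2R2A reads came to carry conversions within hours with DMSO, and far fewer with either inhibitor. Its conversion was 0.815%, 0.785% and 0.351% in the 3 libraries at 0 h. In the DMSO libraries of 2 h it was 3.05%, 5.11% and 3.93%, in those of 4 h 13.9%, 14.6% and 13.9%, and in those of 8 h 29.8%, 36.4% and 43.8%. Each time point with DMSO lay wholly above the one before it. The 8 h mean of 36.7% ± 7.02 (SD, n = 3) was rank 45 among 6541 genes with a value, where the median gene was at 0.885%.

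With KB742, the 2 h libraries had 1.61%, 1.19% and 1.80% PPP2R2A conversion, the 4 h libraries 2.50%, 2.42% and 3.55%, and the 8 h libraries 4.07%, 1.62% and 4.64%. With KI-ARv-03 the same times gave 1.99%, 0.959% and 1.37%, then 3.74%, 2.27% and 1.88%, then 5.23%, 2.67% and 1.30%. Both inhibitors were below all DMSO libraries of the same time at 2, 4 and 8 h. The difference of the means from DMSO widened with KB742 from -2.49 percentage points at 2 h, through -11.3 at 4 h, to -33.2 at 8 h, and for KI-ARv-03 from -2.59 through -11.5 to -33.6. At 8 h, 1 of 6247 genes with a value had a larger fall for KB742 and none of 6308 for KI-ARv-03. Without replicate 1 of KI-ARv-03 at 4 h, the difference at 4 h was -12.1 points.

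**Figure D1:**
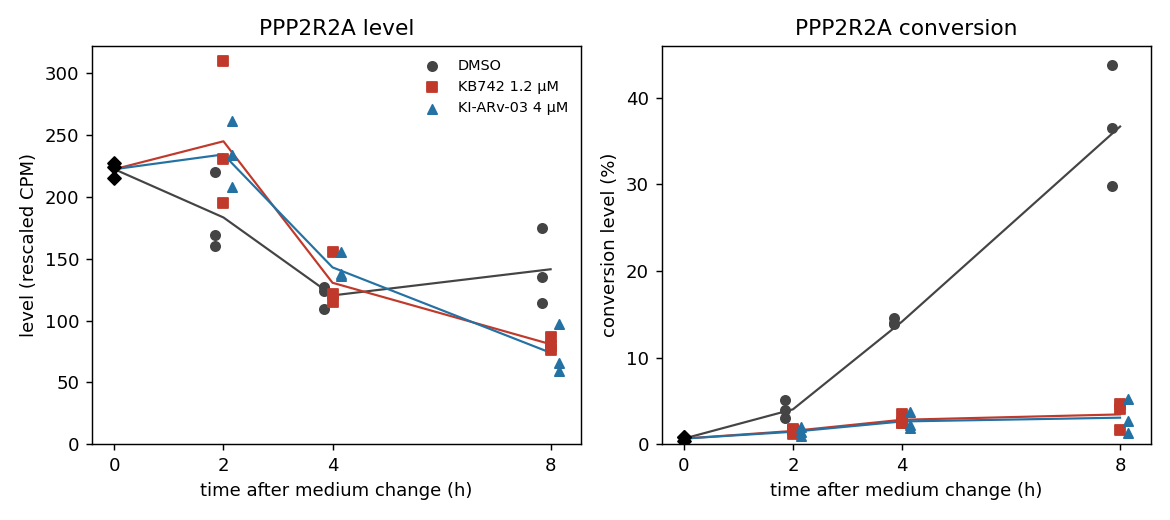
PPP2R2A level in rescaled CPM (left) and s4U conversion in percent (right) against hours after the medium change. Points are single libraries (black diamonds, 0 h), lines join group means; conversion with DMSO reaches 36.7% at 8 h while both inhibitors stay at or below 5.23%, and the level with inhibitors is below DMSO at 8 h only.

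The level of PPP2R2A was lower at 4 and 8 h than at 0 h with DMSO, and at 8 h it was lower still with either inhibitor. It was 224, 215 and 228 CPM at 0 h. The DMSO libraries had 161, 170 and 220 CPM after 2 h, 109.5, 128 and 124 CPM after 4 h and 114.5, 135 and 175 CPM after 8 h. From 4 h on, every DMSO library was below every 0 h library, and the log2 difference from 0 h was -0.88 ± 0.22 (SE) at 4 h and -0.67 ± 0.22 at 8 h.

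The KB742 libraries had 310, 195 and 231 CPM of PPP2R2A after 2 h, 156, 121 and 115 CPM after 4 h and 76.5, 87.2 and 79.2 CPM after 8 h. The KI-ARv-03 libraries had 208, 234 and 261 CPM, then 136, 137 and 156 CPM, then 65.8, 97.0 and 59.3 CPM. At 2 h the inhibitor libraries overlapped those with DMSO, and at 8 h all 6 lay below all 3 DMSO libraries. For KB742 the log2 difference from DMSO was 0.40 ± 0.22, 0.11 ± 0.22 and -0.78 ± 0.22 at the 3 times, and it was 0.36 ± 0.22, 0.25 ± 0.22 and -0.94 ± 0.22 for KI-ARv-03. At 8 h the group mean was 0.572 of that with DMSO for KB742 and 0.523 for KI-ARv-03, and 5.78% and 5.76% of the 11425 genes tested had a lower difference. Under the deposited scaling the differences at 8 h were -0.41 for KB742 and -0.59 for KI-ARv-03, and without KB742 replicate 1 that at 4 h was -0.03. In bulk RNA, fewer cells of a type and less RNA per cell cannot be told apart.

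Over the means of the 10 groups, the 5 genes outside the set whose log2 level was most like that of PPP2R2A were EFNA3 (Pearson r = 0.973), C1orf216 (0.968), NSUN5 (0.966), TRAM1L1 (0.960) and FBXL18 (0.959), of 8237 genes with a range of at least 1. EFNA3, an ephrin ligand, had 19.8 CPM at 0 h, 9.60 CPM with DMSO, 4.44 CPM with KB742 and 3.60 CPM with KI-ARv-03 at 8 h. NSUN5, an RNA methyltransferase of the ribosome, had 69.2, 41.3, 30.0 and 25.9 CPM in the same groups. The 10 points share libraries and scaling factors, and the genes were picked for likeness, so these values describe a ranking. Within the set, PPP2CA (0.762) and PPP2R2D (0.670) had the highest coefficients with PPP2R2A and PPP2R5C (-0.752) the lowest. The coefficient of PPP2R5C is for its row with the most reads.

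Among the other 9 genes, conversion rose with DMSO in both catalytic subunits, PPP2R1B and PPP2R5E by 4 and 8 h, in PPP2R2D by 4 h and in PPP2R5D by 8 h. Conversion was called higher than at 0 h (limma, adjusted p under 0.05) for none of 9 at 2 h, where PPP2CA and PPP2R2D were under an unadjusted 0.05 and 9.15% of all genes were called higher. It was called higher for 5 of 9 at 4 h (34.9% of all genes) and for 5 of 8 at 8 h (43.0% of all genes). PPP2R2D had too few reads for a test at 8 h, with under 20 reads in 12 of 30 libraries.

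**Figure D2:**
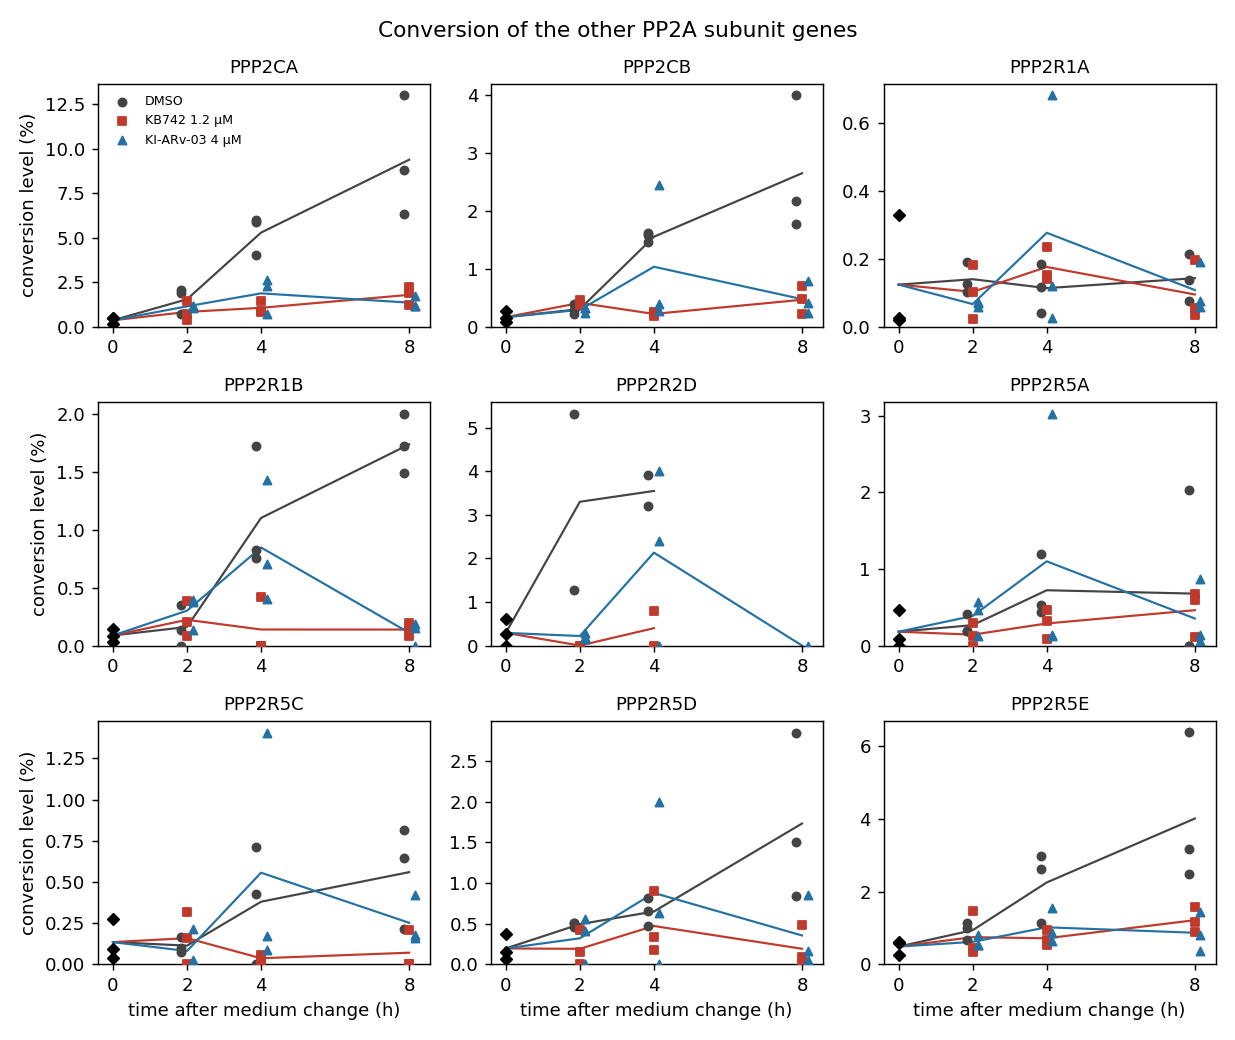
Conversion in percent of the 9 other PP2A subunit genes against hours after the medium change, each panel on its own scale. Points are single libraries with at least 20 reads (black diamonds, 0 h), and lines join the means of the libraries shown. PPP2CA, PPP2CB, PPP2R1B and PPP2R5E climb with DMSO and are lower with both inhibitors at 8 h. PPP2CA still rises with the inhibitors, from a mean of 0.369% at 0 h to 1.80% with KB742 and 1.36% with KI-ARv-03 at 8 h. PPP2R1A remains under 0.7% in every library.

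Both catalytic subunits gained conversion with DMSO, and at 8 h both were lower with either inhibitor. PPP2CA, the more studied of the pair, had 0.477%, 0.489% and 0.141% at 0 h and 6.35%, 13.01% and 8.78% with DMSO at 8 h (limma, adjusted p = 5.2e-11). At 8 h it had 1.25%, 1.89% and 2.25% with KB742 and 1.74%, 1.15% and 1.18% with KI-ARv-03. All 6 inhibitor libraries were below all 3 with DMSO, with differences of -7.58 points (adjusted p = 3.1e-07) and -8.02 points (adjusted p = 3.7e-08).

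At 4 h PPP2CA conversion was 5.88%, 4.01% and 5.97% with DMSO, 0.855%, 0.871% and 1.48% with KB742, and 2.64%, 0.719% and 2.28% with KI-ARv-03. Again no inhibitor library reached the DMSO range, and the differences were -4.22 points (limma, adjusted p = 0.00018) and -3.41 points (adjusted p = 0.0047). The second of these was lost without replicate 2 of KI-ARv-03 at 4 h (-2.83 points, adjusted p = 0.079) and on a log2 scale (adjusted p = 0.19).

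PPP2CB, the near-identical second catalytic subunit, had 0.270%, 0.153% and 0.0780% at 0 h and 1.77%, 4.00% and 2.18% with DMSO at 8 h (limma, adjusted p = 1.6e-06). With KB742 at 8 h it had 0.476%, 0.712% and 0.216%, and with KI-ARv-03 0.414%, 0.232% and 0.790%. The inhibitor libraries did not overlap those with DMSO, and the differences were -2.18 points (adjusted p = 0.00013) and -2.17 points (adjusted p = 0.00012). At 4 h the fall with KB742 was -1.33 points (limma, adjusted p = 0.0036), while KI-ARv-03 overlapped DMSO and was not called (-0.518 points, adjusted p = 0.31). The 2 genes are similar in their coding parts, and how the authors' counting treated reads that fit both is not given in the sources used here.

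Conversion was called lower than with DMSO for 4 of 9 genes at 4 h with KB742, beside 17.7% of all genes, and for 5 of 8 at 8 h, beside 34.7%. With KI-ARv-03 it was 1 of 9 at 4 h, beside 7.70%, and 5 of 8 at 8 h, beside 37.1%. The same 5 genes made up both counts at 8 h: PPP2CA, PPP2CB, PPP2R1B, PPP2R5D and PPP2R5E. The 2 comparisons share the DMSO libraries. The median difference of the 8 genes was -1.57 points for KB742 and -1.50 points for KI-ARv-03, where the median over all genes was -0.546 and -0.593. At 2 h none of 9 was called with either inhibitor, with PPP2R2D under an unadjusted 0.05 in both, and 0.927% and 1.03% of all genes were called lower.

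The scaffold genes differed in conversion. PPP2R1B, the less used scaffold, had 0.142%, 0.0340% and 0.0850% at 0 h and 1.72%, 1.49% and 2.00% with DMSO at 8 h (limma, adjusted p = 0.00033). At 8 h it had 0.0830%, 0.139% and 0.191% with KB742 and 0.147%, 0% and 0.184% with KI-ARv-03. All 6 were below the DMSO libraries, with differences of -1.60 points (adjusted p = 0.0014) and -1.62 points (adjusted p = 0.00044). At 4 h the call with KB742 (-0.962 points, limma, adjusted p = 0.012) was lost without DMSO replicate 2 (adjusted p = 0.065), KB742 replicate 2 (adjusted p = 0.071) or KB742 replicate 3 (adjusted p = 0.052). With KI-ARv-03 at 4 h PPP2R1B overlapped DMSO (-0.255 points, adjusted p = 0.83).

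PPP2R1A, the main scaffold of PP2A, had 0.138%, 0.216% and 0.0760% with DMSO at 8 h, beside 0.328%, 0.0190% and 0.0260% at 0 h. These ranges overlap, and 91.7% of 6541 genes had a higher 8 h mean. At 8 h it had 0.0550%, 0.0350% and 0.196% with KB742 and 0.190%, 0.0580% and 0.0770% with KI-ARv-03, also overlapping DMSO (limma, adjusted p = 0.70 and 0.82).

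In the B55 family, PPP2R2D had 3.91% and 3.19% in the 2 DMSO libraries with enough reads at 4 h, against 0.268%, 0.606% and 0% at 0 h (difference 3.26 points, limma, adjusted p = 0.028). That call was lost without 0 h replicate 3, a library that stands apart (adjusted p = 0.11), and with a minimum of 10 reads (adjusted p = 0.053). With KB742 at 4 h the 2 libraries with enough reads gave 0% and 0.798%, and the difference from DMSO did not pass the threshold (adjusted p = 0.068). PPP2R2D had 3 to 79 reads in a library, so single reads weigh heavily in these values.

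Of the B56 genes, each by its row with the most reads, PPP2R5E and PPP2R5D were called and PPP2R5A and PPP2R5C were not. PPP2R5E had 0.614%, 0.596% and 0.246% at 0 h and 2.48%, 3.17% and 6.39% with DMSO at 8 h (limma, adjusted p = 3.6e-06). At 8 h it had 1.17%, 1.58% and 0.887% with KB742 and 0.802%, 1.44% and 0.360% with KI-ARv-03. The groups did not overlap, and the differences were -2.80 points (adjusted p = 0.0011) and -3.15 points (adjusted p = 8.7e-05). At 4 h the call with KB742 (-1.54 points, limma, adjusted p = 0.028) was lost on a log2 scale (adjusted p = 0.080) and without any 1 of DMSO replicate 1 (0.099) or 3 (0.14) or KB742 replicate 1 (0.082) or 2 (0.097), each an adjusted p.

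The values of PPP2R5E come from a row that the table lists as a non-coding transcript, NR_104104, because it held the most reads. The coding row NM_001282181 gave 3.80% ± 1.86 with DMSO, 1.23% ± 0.348 with KB742 and 0.812% ± 0.520 with KI-ARv-03 at 8 h (SD, n = 3). With DMSO at 8 h the coding row had 116 ± 19.3 CPM and the non-coding row 128 ± 12.4 CPM. In replicate 2 of KB742 at 2 h both rows had 300 reads and 1.459% conversion. In replicate 1 at 0 h the non-coding row had 544 reads at 0.614% and the coding row 515 at 0.626%. The coding row is thus not a separate measurement, and which reads the rows share was not tested.

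PPP2R5D, a B56 subunit that is altered in a neurodevelopmental disorder, had 0.146%, 0.371% and 0.0660% at 0 h and 0.837%, 2.85% and 1.51% with DMSO at 8 h (limma, adjusted p = 0.0091). With KB742 at 8 h it had 0.0880%, 0% and 0.483%, all below DMSO (-1.54 points, adjusted p = 0.0060). With KI-ARv-03 it had 0.162%, 0.851% and 0.0490%, where the highest library overlapped the lowest with DMSO (-1.38 points, adjusted p = 0.024). Without DMSO replicate 2 at 8 h, the largest of its group, all 3 calls were lost, with adjusted p of 0.081 against 0 h, 0.059 for KB742 and 0.155 for KI-ARv-03. The last was also lost without replicate 1 (adjusted p = 0.0649) or 3 (adjusted p = 0.115) of KI-ARv-03.

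PPP2R5C had 0.817%, 0.648% and 0.213% with DMSO at 8 h and 0.210%, 0% and 0% with KB742. The groups did not overlap by a narrow margin (0.213% against 0.210%), and the difference of -0.489 points did not pass the threshold (limma, adjusted p = 0.063). It passed without the 3 libraries that stand apart (adjusted p = 0.021), without DMSO replicate 3 (0.047) and without KB742 replicate 1 (0.038). With KI-ARv-03 it had 0.175%, 0.418% and 0.162%, overlapping DMSO (limma, adjusted p = 0.46). A second 3′ end of PPP2R5C, row NM_001161725 with 27.2 ± 3.67 CPM with DMSO at 8 h, had a higher conversion of 2.22% ± 1.16, and 0.814% ± 0.461 with KB742 and 0.601% ± 0.180 with KI-ARv-03. Its lowest DMSO library at 8 h (1.27%) was above the highest with KB742 (1.205%) and with KI-ARv-03 (0.802%), and this row was not tested. Between 0 h and DMSO at 8 h its mean level went from 37.4 to 27.2 CPM, while the row used went from 50.4 to 62.8 CPM. PPP2R5A had 0%, 2.03% and 0% with DMSO at 8 h, 0.676%, 0.597% and 0.110% with KB742 and 0.865%, 0.136% and 0.0570% with KI-ARv-03, and the groups overlapped.

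Replicate 1 of KI-ARv-03 at 4 h bears on the comparison at that time. It gave 2.46% for PPP2CB against a mean of 0.329% in the other two, 3.02% against 0.137% for PPP2R5A, 2.00% against 0.315% for PPP2R5D and 1.41% against 0.131% for PPP2R5C (means of replicates 2 and 3). Its levels went both ways: PPP2CB had 149.9 CPM there and 244 CPM on average in the other two, PPP2R5A 25.2 and 45.1 CPM, PPP2R5D 110.0 and 78.1 CPM, and PPP2R5E 186 and 182 CPM. Without this library alone, PPP2CB was also called lower with KI-ARv-03 at 4 h (-1.23 points, limma, adjusted p = 0.0021). Without all 3 libraries that stand apart, 3 of 9 genes were called in place of 1: PPP2CA, PPP2CB (adjusted p = 0.0020) and PPP2R5E (-1.50 points, adjusted p = 0.036). PPP2R5E was also called without DMSO replicate 2 at 4 h (adjusted p = 0.049).

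At 2 and 4 h with DMSO none of the 9 genes was called by level (limma), beside 2.73% and 20.3% of all genes. None was under an unadjusted 0.05 at 2 h by limma, edgeR or DESeq2, and at 4 h PPP2CA was by limma and edgeR and was called by DESeq2. In the DMSO cultures, levels of 3 subunit genes fell and that of 1 rose between 0 and 8 h. These 4 of 9 compare with 49.0% of all genes called at 8 h in either direction. Solvent, fresh medium, continued s4U and time all differ between the DMSO groups and 0 h and cannot be told apart. PPP2CA had 143.5, 137 and 149 CPM at 0 h and 55.7, 80.4 and 57.1 CPM with DMSO at 8 h, so the groups did not overlap (log2 difference -1.16 ± 0.24, limma, adjusted p = 0.00028). PPP2R2D fell from 16.1, 12.6 and 16.9 CPM to 4.95, 4.25 and 2.76 CPM, also without overlap (log2 difference -1.72 ± 0.55, adjusted p = 0.012). PPP2CB fell from 197, 194 and 153 CPM to 95.3, 75.0 and 155 CPM, with 1 library in the range of 0 h (log2 difference -0.80 ± 0.29, adjusted p = 0.028). That last call was lost without 0 h replicate 1 (adjusted p = 0.074) or 2 (0.074) or DMSO replicate 1 (0.078) or 2 (0.14).

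PPP2R1A was the member called higher: 46.2, 39.9 and 71.9 CPM at 0 h and 149.8, 109.0 and 230.3 CPM with DMSO at 8 h, with no overlap (log2 difference 1.59 ± 0.63, limma, adjusted p = 0.038). This rise depends on the scaling. The median gene at 8 h shifted by -0.73 on the log2 scale when libraries were scaled by size and by -0.59 under the deposited scaling, and PPP2R1A was then at 0.80 (adjusted p = 0.28) and 0.84 (adjusted p = 0.22). It was also lost without any 1 of 0 h replicate 1 (adjusted p = 0.088) or 2 (0.11) or DMSO replicate 1 (0.069) or 3 (0.15), and with no filter (0.061). PPP2R1B had 39.8, 37.0 and 66.2 CPM at 0 h and 32.2, 29.0 and 31.3 CPM with DMSO at 8 h, without overlap, and did not pass the threshold (log2 difference -0.57 ± 0.25, adjusted p = 0.059). It passed under both other scalings and by edgeR and DESeq2. PPP2R2A moved to -1.47 under scaling by size, and PPP2CA remained called under both.

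**Figure D3:**
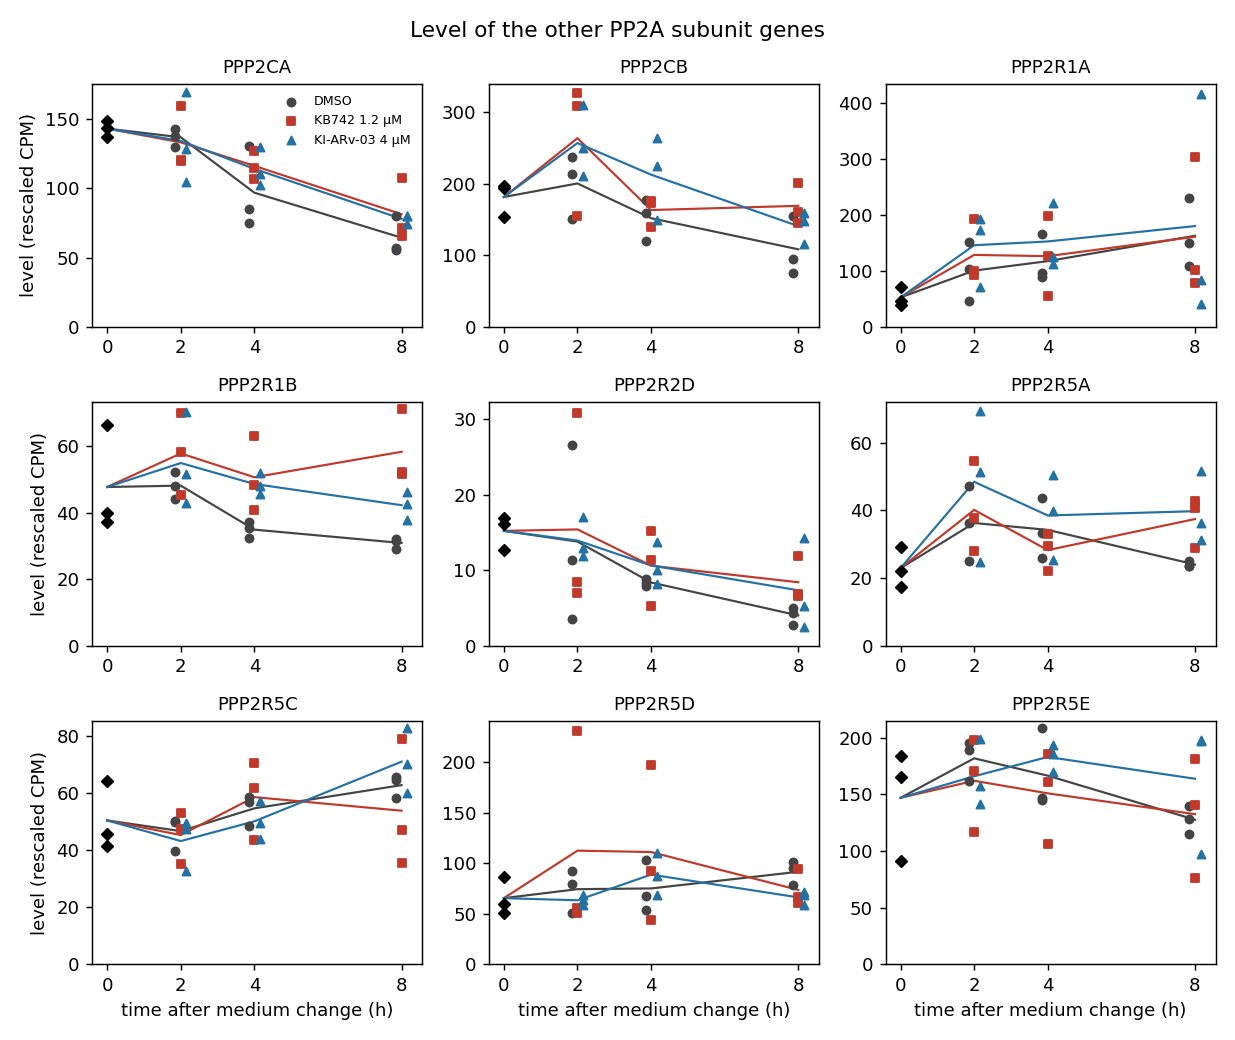
Level in rescaled CPM of the 9 other PP2A subunit genes against hours after the medium change, each panel on its own scale starting at 0. Points are single libraries (black diamonds, 0 h) and lines join group means; PPP2CA falls from 143 to 64.4 CPM on average with DMSO by 8 h, and inhibitor and DMSO libraries of PPP2R1A span wide, overlapping ranges.

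None of the 9 genes was called by level with either inhibitor against DMSO at any time (limma, adjusted p under 0.05). At 8 h 1.84% of all genes were called with KB742 and 2.91% with KI-ARv-03, at 4 h 0.114% and 0.0700%, and at 2 h 0.0263% with each. By limma, PPP2CB and PPP2R1B were under an unadjusted 0.05 with KB742 at 8 h and no other of the 9 was in any of these 6 comparisons. The edgeR quasi-likelihood test also called none and had 2 under an unadjusted 0.05 with KB742 at 8 h and 1 at 4 h, and DESeq2 called 1, PPP2R1B with KB742 at 8 h. At 8 h PPP2R1B had 32.2, 29.0 and 31.3 CPM with DMSO and 51.7, 52.1 and 71.0 CPM with KB742, with no overlap (log2 difference 0.88 ± 0.25, limma, adjusted p = 0.062). It passed without the 3 libraries that stand apart (adjusted p = 0.031). With KI-ARv-03 it had 46.0, 42.7 and 37.9 CPM (log2 difference 0.44 ± 0.25, adjusted p = 0.37).

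At 8 h, PPP2CA had 71.3, 65.6 and 107 CPM with KB742 and 79.9, 80.1 and 74.1 CPM with KI-ARv-03, in or above the DMSO range of 55.7 to 80.4 CPM (log2 differences 0.32 ± 0.24 and 0.29 ± 0.24). PPP2R5A was above DMSO in all 6 inhibitor libraries, 42.9, 40.6 and 28.9 CPM with KB742 and 36.3, 51.6 and 31.3 CPM with KI-ARv-03 against 23.5, 23.6 and 24.9 CPM, without passing the threshold (limma, adjusted p = 0.46 and 0.32). For PPP2R1A, 1 library per inhibitor was far above the rest, 304.1 CPM in KB742 replicate 2 and 416 CPM in KI-ARv-03 replicate 2. PPP2R2A, the B55 gene that heads the set, and PPP2R2D had group differences of opposite sign at 8 h with KB742, -0.78 ± 0.22 and 0.89 ± 0.55, and the difference between genes was not tested. That of PPP2R2D was not called and rests on 8, 11 and 3 reads with DMSO and 17, 13 and 16 with KB742. The median log2 difference of the 9 genes was 0.32 for KB742 and 0.29 for KI-ARv-03, where the median gene had -0.03 and 0.00.

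**Figure D4:**
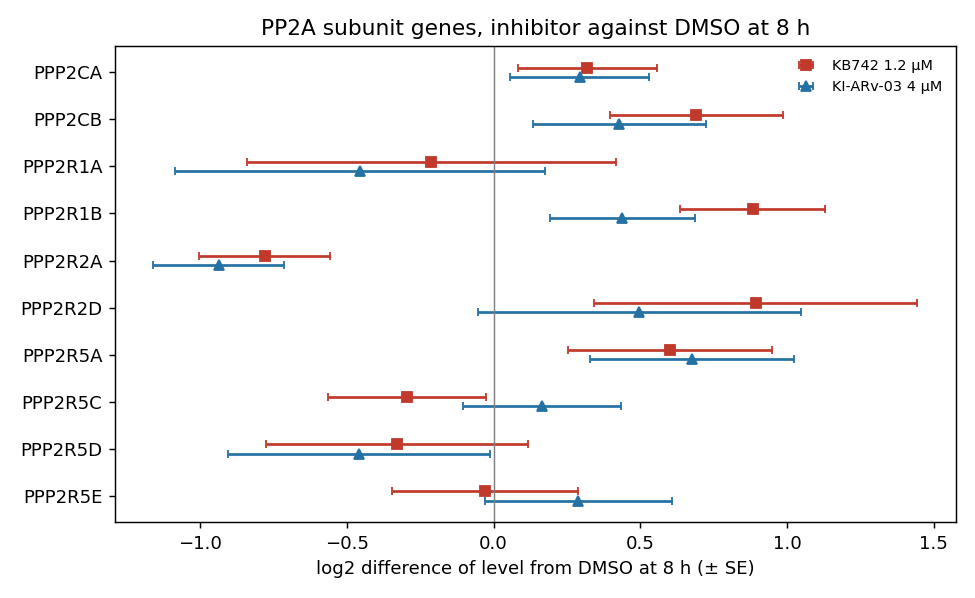
Log2 difference of level from DMSO at 8 h for the 10 genes, with KB742 at 1.2 µM (squares) and KI-ARv-03 at 4 µM (triangles). Bars are ± SE of the fit over all 30 libraries, and the grey line is no difference; PPP2R2A lies at -0.78 and -0.94, and none of the other 9 passed the test.

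Whether an inhibitor's effect on conversion at 8 h differed from its effect at 2 h was tested as an interaction. PPP2CA, PPP2CB and PPP2R1B were called with each inhibitor, 3 of 8 genes beside 4.79% of all genes for KB742 and 5.60% for KI-ARv-03. None of these calls was kept on a log2 scale. With DMSO at 2 h the means of PPP2CB and PPP2R1B were 0.307% and 0.160%, beside 0.167% and 0.0870% at 0 h. At 2 h the difference from DMSO was 0.107 points with KB742 and -0.0133 with KI-ARv-03 for PPP2CB, and 0.0617 and 0.140 for PPP2R1B. The interaction of these 2 genes was thus close to their difference at 8 h. Whether their low conversion at 2 h limited a fall was not tested. Without the 3 libraries that stand apart, PPP2R5E was also called with KI-ARv-03 (-2.83 points, limma, adjusted p = 0.029). For PPP2R2A the change in the difference was -30.7 points with KB742 and -31.0 points with KI-ARv-03. By level none of 9 was called with either inhibitor, nor was any under an unadjusted 0.05 by limma, edgeR or DESeq2, beside 0.00875% of all genes called with each. The level difference of PPP2R2A changed by -1.18 ± 0.31 and -1.30 ± 0.31 on the log2 scale between 2 and 8 h, and over the 10 settings that kept every library it ranged from -1.22 to -0.64 for KB742 and from -1.31 to -0.89 for KI-ARv-03.

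Other genes of the PP2A network were followed in lists chosen by role. By level at 8 h, 1.84% of all genes were called with KB742 and 2.91% with KI-ARv-03. Of the 8 tested among the 9 other B subunits, 1 was called with each inhibitor, and it was higher. STRN3, a striatin that serves as the B subunit of the STRIPAK complex, had 7.87 ± 2.92 CPM with DMSO, 19.8 ± 6.71 CPM with KB742 (log2 difference 1.23 ± 0.30, limma, adjusted p = 0.028) and 19.2 ± 4.73 CPM with KI-ARv-03 (1.21 ± 0.30, adjusted p = 0.025; SD, n = 3). Among 11 partners of the striatins, MOB4 was the single gene called by level. It had 50.7 ± 18.5 CPM with DMSO, 112 ± 22.0 CPM with KB742 (1.17 ± 0.29, adjusted p = 0.033) and 117 ± 3.14 CPM with KI-ARv-03 (1.25 ± 0.29, adjusted p = 0.017). With DMSO at 8 h against 0 h, 3 of the 8 B subunits were called lower and none higher. Of the 11 partners 5 were called lower and 1 higher, beside 49.0% of all genes called in either direction. Whether STRN3 and MOB4 rose with an inhibitor or fell with DMSO is not shown by the 8 h values. No gene was called by level at 8 h among 11 PP2A inhibitors, 5 assembly and methylation factors, 5 Integrator subunits of the PP2A module, 12 subunits of the related phosphatases PP4 and PP6, or 9 PP1 subunits and partners.

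Where conversion could be tested in these lists at 8 h, it was called lower or not called, beside 34.7% of all genes called lower with KB742 and 37.1% with KI-ARv-03. No Integrator subunit had a conversion test at 8 h. Among the PP2A inhibitors it was lower for 5 of 8 genes for KB742 and 4 of 9 for KI-ARv-03, the latter near the share of all genes. ENSA and ARPP19, which once phosphorylated block PP2A with a B55 subunit, went from 1.14% ± 0.0661 and 1.54% ± 0.294 with DMSO to 0.157% ± 0.0766 and 0.408% ± 0.103 with KB742 (limma, adjusted p = 9.3e-06 and 0.0078). With KI-ARv-03 they were at 0.169% ± 0.0635 and 0.242% ± 0.158 (adjusted p = 1.1e-05 and 0.00092). SET, a PP2A inhibitor protein, fell from 0.969% ± 0.140 to 0.323% ± 0.199 and 0.194% ± 0.0904 (adjusted p = 0.0033 and 0.00027). The list medians were -0.357 points for KB742 and -0.349 points for KI-ARv-03, where the median gene had -0.546 and -0.593.

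Of 4 other B subunits with a conversion test, 2 were lower with each inhibitor. With KB742 these were PPP2R3C (0.503% ± 0.339 against 2.55% ± 1.01, limma, adjusted p = 0.024) and PPP2R2B (0% against 1.49% ± 0.592, adjusted p = 0.011). With KI-ARv-03 they were STRN (0.228% ± 0.207 against 2.34% ± 0.858, limma, adjusted p = 0.017) and STRN4 (adjusted p = 0.027). The DMSO values of PPP2R2B and STRN rest on 2 libraries. Of 5 assembly and methylation factors, TIPRL alone was called, from 0.926% ± 0.421 to 0.120% ± 0.0739 and 0.113% ± 0.0824 (limma, adjusted p = 0.0057 and 0.0038). Among 6 striatin partners tested, 1 was lower with KB742 and 3 with KI-ARv-03, with STK25 in both.

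Of 10 PP4 and PP6 genes tested, 6 were lower with each inhibitor. PPP4C, the catalytic subunit of PP4, went from 10.2% ± 3.85 with DMSO to 0.742% ± 0.857 (n = 2) with KB742 (limma, adjusted p = 0.00015) and 1.66% ± 1.37 with KI-ARv-03 (adjusted p = 0.00026). Of 7 PP1 genes tested, 4 were lower with KB742 and 3 with KI-ARv-03, the latter again near the 37.1% of all genes. PPP1CC, a catalytic subunit of PP1, went from 9.04% ± 2.61 to 0.992% ± 0.229 (adjusted p = 6.1e-09) and 1.23% ± 0.707 (adjusted p = 1.1e-08). The DMSO means of PPP4C and PPP1CC were close to that of PPP2CA (9.38% ± 3.37), while PPP2R2A was at 36.7%.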

How the data were processed

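Per the submitters' processing notes the reads were mapped to hg19, and the table has a row for each RefSeq transcript with a pair of values for each of 30 libraries from a 3′ end kit. One value is a deposited signal under the heading CPM. All of its nonzero entries are multiples of 1 step per library (100% whole within 0.05), from which reads were recovered; the CPM sum to 0.840 to 1.38 of the nominal total. The other is a conversion fraction that the authors deposited with no numerator or depth. Which aligner and conversion caller were used is not stated in the labels.

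Titles use a short form of KI-ARv-03, and for 8 of 9 samples at 4 h the treatment field conflicts with the title, whose time was used. The free-text descriptions name DMSO for every sample, inhibitor samples included, and the treatment field for KB742 can be read as another dose; group and dose follow the titles. Of 85618 rows and 50925 RefSeq identifiers, 99.22% of identifiers had a symbol, and 0.478% of reads had no name and were left out. The row with the most reads stood for its gene.

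Levels were tested with limma 3.58.1 (R 4.3.3) on log2(CPM + 1) after TMM scaling in edgeR 4.0.16, in 1 fit of 10 groups over the 11425 genes that passed filterByExpr at a minimum count of 10. The median half-width of the 95% interval of a log2 difference was 0.879, and a difference of low genes is understated on this scale. For conversion, limma was run on arcsine-transformed square roots of values behind at least 20 reads, with 2 or more values per group. Genes with adjusted p (Benjamini-Hochberg, all tested genes) under 0.05 were called. edgeR's quasi-likelihood test and DESeq2 1.42.0 on recovered reads were alternatives, beside other scalings, no filter, a pseudocount of 0.25, read minimums of 10 and 50, a log2 scale for conversion, the compared groups alone, a replicate block and leaving out libraries. Fits were tested on simulated data. Tables and plots used Python 3.11.15 with pandas 2.3.3, numpy 2.4.6, matplotlib 3.10.9 and scipy 1.17.1.

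The members and lists were chosen with earlier results of these data known. All 10 members are named, from each list at most 4 genes called at 8 h against DMSO (largest differences first), and the 5 genes with the highest Pearson correlation to PPP2R2A over group means. One luminal marker is not reported here.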

Additional observations from a re-analysis of the deposited data

Results flagged for a closer look

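For 3 genes the difference in conversion between an inhibitor and DMSO was more negative at 8 h than at 2 h. The change was tested as a limma interaction over all genes, Benjamini-Hochberg adjusted. At 2 h the difference with KB742 was -0.710 points for PPP2CA, 0.107 for PPP2CB and 0.0617 for PPP2R1B. For KI-ARv-03 it was -0.398, -0.0133 and 0.140 points in the same order. With KB742 the change in the difference was -6.87 points for PPP2CA (adjusted p = 0.0057), -2.29 for PPP2CB (0.012) and -1.66 for PPP2R1B (0.041). With KI-ARv-03 it was -7.62 points for PPP2CA (0.00055), -2.16 for PPP2CB (0.026) and -1.76 for PPP2R1B (0.014). At 2 h conversion with DMSO was 1.55% ± 0.716 for PPP2CA, 0.307% ± 0.0908 for PPP2CB and 0.160% ± 0.176 for PPP2R1B (SD, n = 3), and both inhibitor groups overlapped DMSO for all 3 genes. Whether the low conversion of PPP2CB and PPP2R1B at 2 h limited a fall there was not tested. On a log2 scale none of the 6 was called, with adjusted p from 0.20 to 0.50. PPP2R1B with KB742 was lost without any 1 of 10 libraries (adjusted p 0.051 to 0.11). PPP2CB was lost without DMSO replicate 2 at 8 h with both inhibitors (-1.62 points, 0.065, and -1.49 points, 0.11) and with KI-ARv-03 also without any 1 of 5 more libraries (adjusted p 0.053 to 0.082). PPP2R1B with KI-ARv-03 was lost without replicate 2 of KI-ARv-03 at 8 h (-1.71 points, 0.053).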

How the results depend on the processing

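Signs were followed for the differences called in the main fit and for those of PPP2R2A at each time, and not for other uncalled differences. Among those followed, 1 changed sign in an alternative. The level difference of PPP2R2A with KB742 at 4 h, which was not tested, ranged from -0.03 (without KB742 replicate 1) to 0.19 on leaving out single libraries. By level at 4 h with DMSO, 2 of 9 genes were called when scaled by library size, 2 under the deposited scaling, 1 by DESeq2 and 1 with the compared groups alone, against 0. By level with KB742 at 8 h, 1 was called when scaled by library size, 2 under the deposited scaling, 1 with no filter, 1 by DESeq2 and 1 without the 3 libraries that stand apart (chosen after seeing the data), against 0. By conversion with DMSO at 2 h, 1 was called on a log2 scale and 1 with the compared groups alone, against 0. With KI-ARv-03 at 4 h, 0 were called on a log2 scale and 3 without those 3 libraries, against 1. Both interactions fell from 3 called to 0 on a log2 scale. The cause was not tested.

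Leaving out each library in turn gave 0 to 1 genes called by level with DMSO at 4 h (1 without DMSO replicate 3), 2 to 4 at 8 h, and 0 for DMSO at 2 h and every inhibitor comparison and interaction. By conversion it gave, with DMSO, 0 to 1 at 2 h, 3 to 5 at 4 h and 4 to 5 at 8 h. It gave 0 with KB742 at 2 h, 2 to 3 at 4 h and 4 to 6 at 8 h. It gave 0 with KI-ARv-03 at 2 h, 0 to 2 at 4 h and 4 to 5 at 8 h. The interactions gave 1 to 4 with KB742 and 2 to 4 with KI-ARv-03.

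Scaling moved the median of all genes with KB742 at 8 h by 0.23 (library size) and 0.28 (deposited), and with KI-ARv-03 by 0.18 and 0.24. Calls among all genes with DMSO at 8 h were 2282 higher and 3320 lower, against 468 and 5209 by library size and 433 and 4903 under the deposited scaling. With KB742 they were 141 and 69, against 349 and 49, and 209 and 32. With KI-ARv-03 they were 220 and 113, against 379 and 76, and 290 and 43.

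Replicate numbers did not pair the libraries: deviations of same-numbered libraries correlated at -0.363 to 0.452 over 27 pairs, and 6 libraries correlated best with their own number. A replicate block left the counts at 4 by level with DMSO at 8 h and at 5 by conversion with DMSO and with each inhibitor at 8 h. Depth limits PPP2R2D most, with 3 to 79 reads in a library.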
